A study of Mus musculus with 4 samples.

Results

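The costimulatory ligands and receptors described here are 10 genes, *Cd28*, *Icos*, *Icosl*, *Cd80*, *Cd86*, *Cd40*, *Cd40lg*, *Tnfrsf4*, *Tnfrsf9* and *Tnfrsf18*. All 10 were found among the 33696 genes in the files, and were chosen by name with earlier results of these data known. They were followed in single-cell RNA from live CD45+ leukocytes sorted from subcutaneous KPC tumours, which grow from a mouse pancreatic tumour cell line in immune-competent syngeneic hosts. The 4 groups were untreated mice, mice given the STING agonist ADU-S100 (2 μg into the tumour on day 0), mice given the agonistic antibody 4H8 against the lymphotoxin-β receptor (anti-LTβR, 100 μg intraperitoneally 4 times until day 10), and mice given both agonists (combination). All groups were male C57BL/6NHsd mice of 8 to 10 weeks bearing the same tumour line, tumours were taken on day 14, and 10 tumours were pooled per group. Each group has 1 library and no replicate, so no difference between groups was tested, and the tumours of a pool cannot be told apart. The comparisons asked how far each agonist, alone or with the other, went along with a different level of these genes in T cells, B cells, dendritic cells (DCs) and macrophages.

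T cells need a second signal beside the antigen receptor to become fully activated, and these genes carry it. CD28 on T cells binds CD80 and CD86 on antigen-presenting cells, and ICOS, a relative of CD28, binds ICOSL. CD40 ligand, shown by activated helper T cells, binds CD40 on B cells, DCs and macrophages and licenses them. OX40 (*Tnfrsf4*), 4-1BB (*Tnfrsf9*) and GITR (*Tnfrsf18*) are receptors of the tumour necrosis factor (TNF) receptor superfamily that appear on T cells after activation and stand high on regulatory T cells, which are marked by *Foxp3*.

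Levels are given as unique molecular identifiers (UMIs) of a gene per 1000000 UMIs of the same cells (CPM). Sets of 4 values are in the order untreated, ADU-S100, anti-LTβR and combination, and sets of 3 ratios give each treated library against untreated in the same order. A ratio between libraries is given as log2, followed in parentheses by its exact 95% interval, which covers counting error only and not variation between mice, pools or libraries. A gene counted as past the limit when its ratio passed 1.5-fold in either direction, with at least 20 UMIs in both libraries together. The shares over all genes count only genes with at least 200 UMIs in both libraries together. Members with fewer UMIs carry more counting error than those genes. The members, and the further gene lists read below, were chosen with earlier results of these data known. Their counts beside these shares are therefore descriptions, and cannot show independently that these sets moved more than other genes. In these sorted cells, fewer cells of a kind within a class and less RNA per cell cannot be told apart from a class level alone.

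Classes were named from fixed marker genes, so T cells, B cells, DCs and the like stand for cells with the markers of those types. The deposited libraries held 52109958 to 85855398 UMIs in 8730 to 16322 cells. Kept leukocytes numbered 7368, 13222, 13021 and 14419, with 1387, 595, 2023 and 1661 T cells, 111, 72, 535 and 1037 B class cells (plasma cells included), 690, 514, 933 and 1027 DCs and 3195, 4560, 6246 and 6692 macrophages and monocytes. The combination library was the shallowest, with a median of 3368, 3764, 2872 and 1665 UMIs per T cell. Summed over their marker lists, T markers stood at 3084 to 3493 CPM in the T class against 2.63 to 10.1 CPM in macrophages and monocytes, and macrophage markers at 12289 to 17255 CPM against 217 to 537 CPM in the T class. RNA of other cells was present in the classes, and it differed between libraries. Neutrophil markers summed to 11.2, 472, 17.4 and 73.7 CPM in the T class and to 12.4, 666, 95.9 and 61.03 CPM in the DC class, highest in both with ADU-S100, where neutrophils were most numerous (451, 4972, 951 and 1240 cells). Macrophage markers summed to 249, 217, 239.8 and 537 CPM in the T class and 1524, 1029, 2083 and 2838 CPM in the DC class. Their part in the results was not tested. Between 34 and 83 cell barcodes were shared by any pair of libraries, at most 0.539% of the smaller one.

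Most of the 10 genes had their UMIs mainly in T cells or mainly in antigen-presenting cells. T cells held 84, 73.9, 75.2 and 71.6% of the *Cd28* UMIs of each library, 93.8, 89.3, 90.4 and 89.7% of those of *Icos* and 95.02, 96.2, 96.2 and 93.4% of those of *Cd40lg*. *Tnfrsf4* was as narrow, with 90.2, 83.3, 86.3 and 83.1% of its UMIs in T cells. *Tnfrsf18* was broader (75.5, 53.5, 64.6 and 56.1%), and *Tnfrsf9* broader still (57.05, 17.8, 34.9 and 29.6%), with 21.3, 34.9, 35.6 and 41.2% of its UMIs in macrophages and monocytes and, with ADU-S100, 26.1% in neutrophils. Of the genes of antigen-presenting cells, macrophages and monocytes held 62.4, 62.7, 65.1 and 62.96% of the *Cd86* UMIs, 68.7, 68.2, 71.8 and 67.4% of those of *Cd40*, 48.3, 42.6, 61.02 and 59.3% of those of *Cd80* and 58.3, 47.9, 57.98 and 55.6% of those of *Icosl*. Unnamed clusters held 20.9, 24.6, 19.7 and 24.5% of the *Cd86* UMIs, more than DCs (15.2, 10.4, 12.7 and 9.72%), and 14.8, 16.6, 13.9 and 18.4% of those of *Cd80*. These shares follow the number of cells in each class, and per UMI the order differed: in all 4 libraries, *Cd80*, *Cd86*, *Cd40* and *Icosl* stood higher in DCs than in macrophages and monocytes, although for *Cd86* in the combination library by only 1167 against 1163 CPM. No *Cd40lg* UMI was found in DCs of any library, which allows up to 0.565, 0.751, 0.493 and 0.750 CPM.

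**Figure D1:**
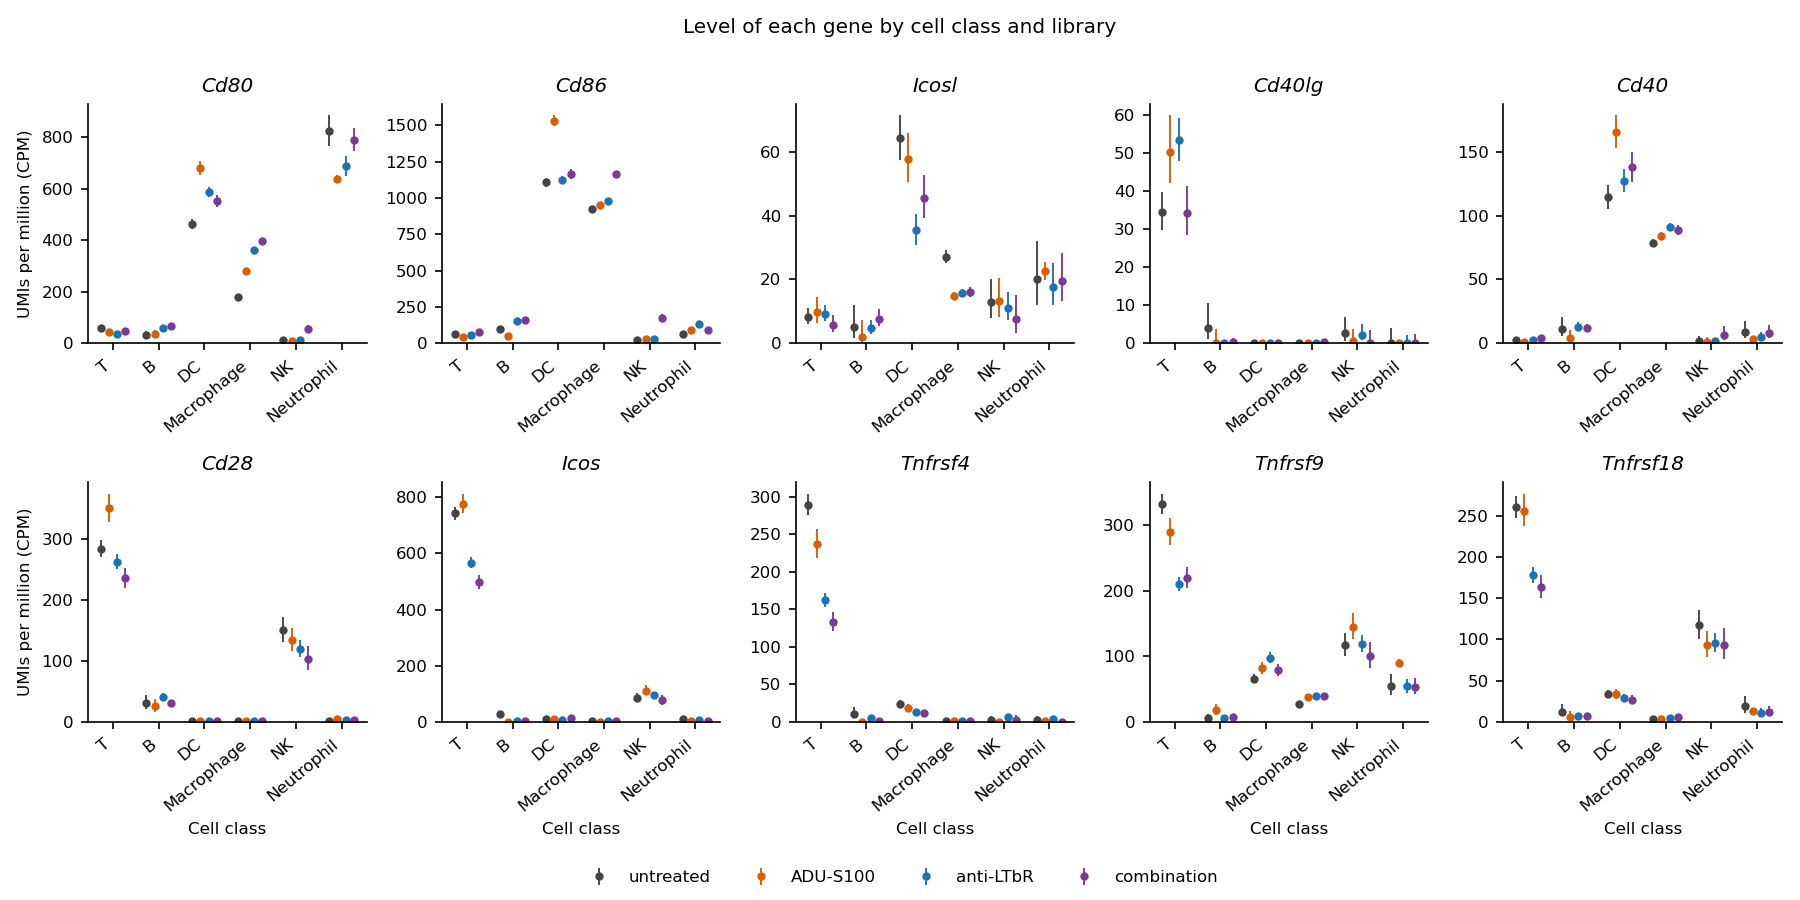
Each panel plots 1 gene, with its level (CPM, linear axis from 0, its range set per gene) against cell class, B meaning B and plasma cells and Macrophage meaning macrophages and monocytes. Points are libraries, and bars are exact Poisson 95% intervals for counting error. *Cd28*, *Icos*, *Cd40lg*, *Tnfrsf4* and *Tnfrsf18* are highest in T cells, *Cd86*, *Cd40* and *Icosl* in DCs, and *Cd80* is also high in neutrophils.

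The share of cells with at least 1 UMI depends on depth and is given with and without thinning. *Icos* was seen in 65.1, 64.9, 47.5 and 37.7% of T cells, and in 55.7, 54.7, 42.2 and 40.2% once each cell was thinned to 2000 UMIs, which left out 300, 123, 554 and 1014 shallower T cells. In neutrophils, which should lack it and whose median depth was 1901, 2198, 1651 and 1047 UMIs against 3368, 3764, 2872 and 1665 in T cells, the share was 0.222, 0.282, 0.736 and 0.323%. *Tnfrsf4* was seen in 28.8, 25.9, 19.6 and 13.2% of T cells (24.9, 21.6, 15.5 and 14.1% thinned) and in 0.443, 0.261, 0.526 and 0% of neutrophils. *Cd80* was seen in 51.6, 63.1, 59.9 and 56.3% of macrophages and monocytes, and thinned in 25.7, 35.9, 40.8 and 45.9%, a different order of the libraries, over fewer cells, since 287, 423, 913 and 1899 shallower ones were left out. In T cells *Cd80* was seen in 12.4, 10.6, 6.38 and 6.80% of cells, which include *Foxp3*+ cells that carried it, and *Cd40* in 0.865, 0.336, 0.791 and 0.783%.

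In T cells, the 3 TNF receptors stood lower in both libraries that had received anti-LTβR. *Tnfrsf4* was at 289.5, 237, 162 and 133 CPM (1602, 602, 1078 and 442 UMIs), a log2 ratio to untreated of -0.84 (-0.95 to -0.72) in the anti-LTβR library and -1.12 (-1.27 to -0.96) in the combination library. *Tnfrsf9* was at 333, 289.9, 210.4 and 219.8 CPM, with log2 ratios of -0.66 (-0.76 to -0.56) and -0.60 (-0.72 to -0.47). *Tnfrsf18* was at 261, 257, 178 and 164 CPM, with log2 ratios of -0.55 (-0.66 to -0.44) and -0.67 (-0.81 to -0.52). Untreated and ADU-S100 were the high libraries and anti-LTβR and the combination the low ones for each of the 3. With ADU-S100 alone the differences were small, the log2 ratio of *Tnfrsf4* being -0.29 (-0.42 to -0.15) and that of *Tnfrsf18* -0.022 (-0.16 to 0.11).

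The receptors of the CD28 family differed less. *Icos* was at 742, 778, 567 and 498 CPM, with log2 ratios of 0.067 (-0.011 to 0.14), -0.39 (-0.45 to -0.32) and -0.58 (-0.66 to -0.49). *Cd28* was at 285, 351, 263 and 236 CPM, and the corresponding log2 ratios were 0.30 (0.18 to 0.42), -0.11 (-0.21 to -0.014) and -0.27 (-0.40 to -0.15). For *Cd28*, ADU-S100 was the high library and the combination the low one. Counted over the 10 genes, 0 of the 9 measured in T cells passed 1.5-fold with ADU-S100, where 6.6% of all genes tested did. With anti-LTβR, 1 of 10 passed upwards (*Cd40lg*) and 3 downwards (*Tnfrsf4*, *Tnfrsf9* and *Cd80*), against 6.57% of all genes in either direction. The log2 ratio of *Cd80* there, -0.75, became 0.32 without doublet removal and -0.32 with each cluster held at its untreated share of UMIs. With the combination, 0 passed upwards and 3 downwards (*Tnfrsf4*, *Tnfrsf9* and *Tnfrsf18*), against 5.69% of all genes. The median log2 ratio of the measured members was -0.022, -0.25 and -0.44 in these comparisons, beside -0.058, -0.00047 and -0.054 over all genes tested. The 3 comparisons share the untreated library.

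**Figure D2:**
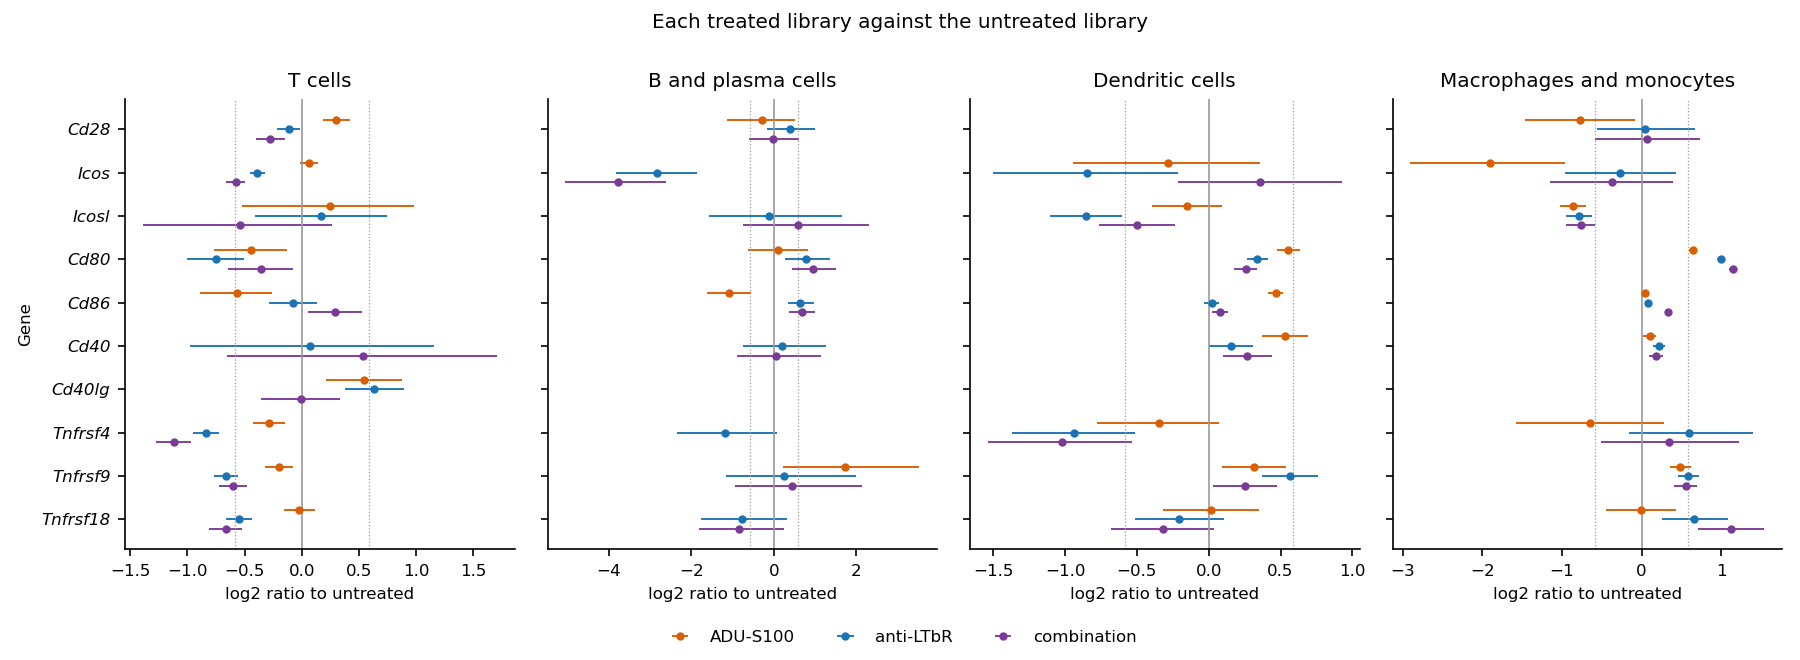
Log2 ratio of each treated library to the untreated library (x axis, its range set per class) for the genes with at least 20 UMIs in both libraries together, in 4 cell classes. Bars are exact 95% intervals for counting error, dotted lines mark 1.5-fold. In T cells *Tnfrsf4* lies at -0.84 and -1.12 with anti-LTβR and the combination, and in macrophages and monocytes *Cd80* lies at 0.65, 1.00 and 1.14.

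The T class was not made of the same cells in the 4 libraries, and its 5 main clusters carried the receptors at very different levels. A cluster led by *Nsg2*, *Ifngas1* and *Tcf7*, where *Tcf7* is a transcription factor of naive and memory T cells, made up 19.1, 36.97, 43.5 and 45.3% of T cells. A cluster led by *Foxp3* made up 17.6, 11.9, 9.19 and 6.38%, a cluster led by *Il17a* and *Il23r* 24.7, 26.7, 27.2 and 20.1%, a cluster led by *Klrh1* and *Rgs16* 28.4, 17.98, 17.5 and 22.8%, and a cluster led by *Galnt18* 9.66, 5.55, 1.78 and 4.88%. The *Foxp3* cluster was the high one for all 3 TNF receptors in every library, and the *Nsg2* cluster was low for them, with *Tnfrsf4* at 6.09, 0, 6.15 and 6.57 CPM (6, 0, 17 and 9 UMIs). The *Foxp3* cluster thus made up a smaller share of T cells in the combination library than in any other, and the *Nsg2* cluster a larger one. The *Galnt18* cluster was named from 4 of 8 T cell markers only. The *Nsg2* cluster was mixed too: at a finer clustering, 1161 cells led by *Dapl1*, *Nsg2*, *Lef1* and *Tcf7* (87, 69, 412 and 593 cells) stood apart from 850 cells led by *Klra1*, *Klra6* and *Trgc4* (151, 118, 435 and 146 cells), the former most numerous in the combination and the latter in the anti-LTβR library.

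Within the *Foxp3* cluster (244, 71, 186 and 106 cells) the receptors were still lower after anti-LTβR. *Tnfrsf4* was at 1239, 1318, 839 and 801 CPM there, with log2 ratios to untreated of -0.56 (-0.73 to -0.40) in the anti-LTβR library and -0.63 (-0.88 to -0.39) in the combination library. *Tnfrsf9* was at 1042, 1069, 769.9 and 826 CPM (-0.44 (-0.61 to -0.26) and -0.33 (-0.59 to -0.091)), and *Tnfrsf18* at 734, 825, 542 and 522 CPM (-0.44 (-0.65 to -0.23) and -0.49 (-0.81 to -0.19)). In all 3 cases untreated and ADU-S100 were the higher libraries. *Icos*, at 1452, 1860.2, 1441 and 1282 CPM, differed from untreated by -0.011 (-0.14 to 0.12) with anti-LTβR, an interval that includes 0. Regulatory T cells chosen instead by UMIs (a *Cd4* and a *Foxp3* UMI and no *Cd8a* or *Cd8b1* UMI) numbered only 88, 29, 56 and 20, and *Tnfrsf4* was at 1536, 1268, 953 and 1136 CPM in them. In the combination library 28 of the 56 *Tnfrsf4* UMIs of these cells came from 1 cell.

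In 3 other T cell clusters *Tnfrsf9* was not lower after anti-LTβR. In the *Klrh1* cluster, which also held *Cd8a*, *Lag3* and *Ifng*, *Tnfrsf9* was at 295, 253, 302 and 346 CPM, a log2 ratio of 0.034 (-0.13 to 0.20) in the anti-LTβR library and 0.23 (0.044 to 0.42) in the combination library. In the *Il17a* cluster *Tnfrsf9* was at 115, 289, 189 and 158 CPM, higher than untreated in all 3 treated libraries and most with ADU-S100 (1.33 (0.96 to 1.70)). In the *Galnt18* cluster it was at 400.4, 727, 738 and 550.01 CPM (134, 33, 36 and 81 cells). After anti-LTβR, the direction of *Tnfrsf9* in the T class as a whole therefore differed from its direction inside these 3 clusters. *Tnfrsf4* was at 143, 117, 109.7 and 117 CPM in the *Klrh1* cluster, lower than untreated in the treated libraries with intervals that included 0 except for anti-LTβR (-0.39 (-0.65 to -0.13)), and at 255, 324, 295 and 263 CPM in the *Il17a* cluster, lowest in the untreated library. With each cluster held at its untreated share of UMIs, an alternative added after the data had been seen, the T class log2 ratio of *Tnfrsf9* was -0.015 with anti-LTβR and 0.033 with the combination. Those of *Tnfrsf4* became -0.37 and -0.43, those of *Tnfrsf18* -0.26 and -0.30, and those of *Icos* 0.050 and -0.14, and 0 of the 10 genes then passed 1.5-fold with either treatment. No share over all genes is given with clusters held, so this count does not show whether the members moved more than other genes.

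**Figure D3:**
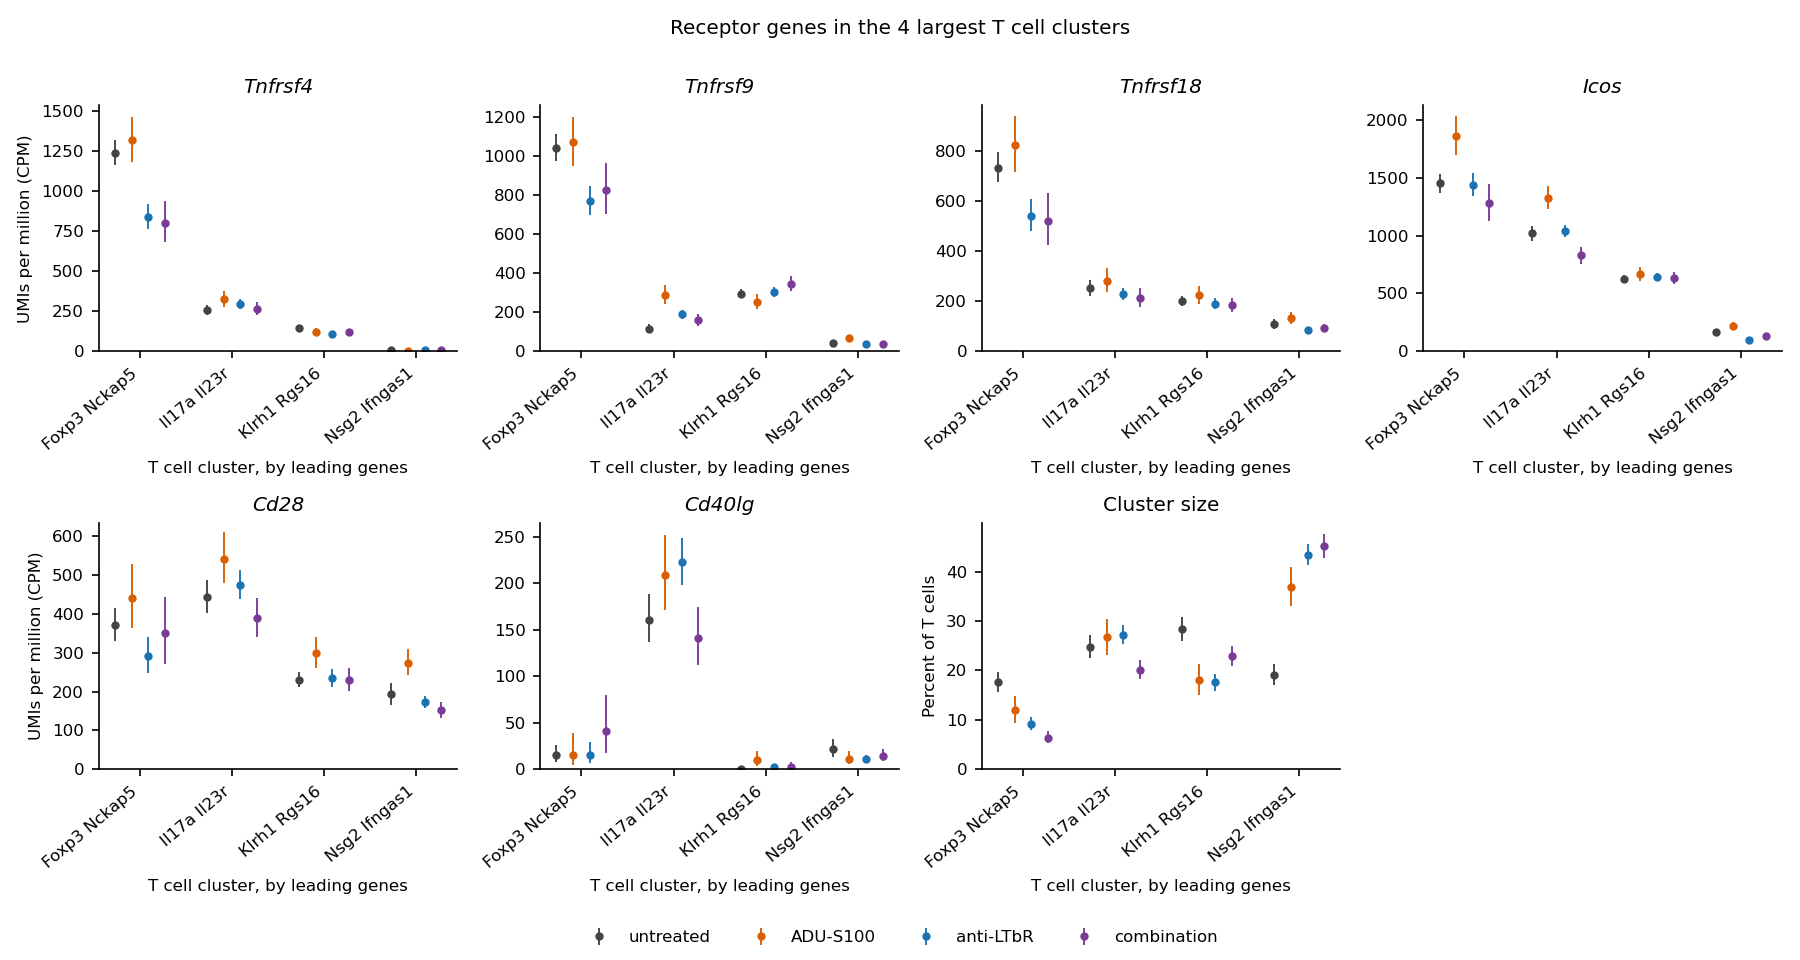
Levels (CPM, linear axes from 0) of 6 receptor and ligand genes in the 4 largest T cell clusters, named by their leading genes, with the share of T cells in each cluster in the last panel. Points are libraries and bars exact 95% intervals for counting error. The *Foxp3* cluster is highest for *Tnfrsf4*, *Tnfrsf9* and *Tnfrsf18* and made up 17.6% of T cells in the untreated and 6.38% in the combination library.

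Among T cells set by UMIs, CD8 cells (a *Cd8a* or *Cd8b1* UMI and no *Cd4* UMI) numbered 521, 211, 655 and 668. In them *Tnfrsf9* was at 277, 211, 196 and 225 CPM and *Tnfrsf4* at 126, 88.1, 70.8 and 70.9 CPM, with log2 ratios of *Tnfrsf4* of -0.83 (-1.10 to -0.58) in the anti-LTβR library and -0.83 (-1.15 to -0.53) in the combination library. CD4 cells without a *Foxp3* UMI (176, 85, 319 and 164 cells) held the highest *Cd28* levels of the T cell subsets, at 583, 673, 504 and 446 CPM, and *Icos* at 1147, 1433, 968 and 877 CPM. *Tnfrsf9* in these cells went the other way from the T class, at 164, 293, 171 and 240.02 CPM, with a log2 ratio of 0.84 (0.41 to 1.27) with ADU-S100. The ligand *Cd80* was also counted in *Foxp3*+ CD4 cells, at 168, 105, 81.6 and 40.6 CPM from 66, 16, 19 and 2 UMIs, against 22.4, 49.99, 15.3 and 34.3 CPM in CD4 cells without a *Foxp3* UMI. With no *Cd4* UMI needed, *Cd80* in *Foxp3*+ cells was at 159, 93.5, 102 and 86.3 CPM from 99, 21, 40 and 10 UMIs, highest in the untreated library and close among the treated ones. Gamma-delta cells chosen by *Trdc* were too few (38, 14, 54 and 37 cells) to give more than *Icos*, at 271, 248, 311 and 229 CPM.

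*Tnfrsf4* and *Tnfrsf18* are neighbours: on mouse chromosome 4 (GRCm38.p6, as listed by RefSeq) their starts lie 12627 bases apart on the same strand, and *Tnfrsf9* lies on the same chromosome. Because these receptors were lower together in the T class as sampled after anti-LTβR, though *Tnfrsf9* not with clusters held at their untreated shares, the 250 bases before their starts are shown, with any AP-1 motif (TGANTCA, searched on both strands) in capitals. *Tnfrsf9* has more than 1 listed start, and the window printed was picked because it has a match. The window of the other listed start (chr4:150919905-150920154) held no AP-1 match. The presence of a match in the printed window was thus fixed by the choice. RefSeq promoters were given for 5 of the 10 genes, and 6.75% of the 32851 promoters listed held an AP-1 match in the same window.
Tnfrsf4 (chr4:156013445-156013694, + strand): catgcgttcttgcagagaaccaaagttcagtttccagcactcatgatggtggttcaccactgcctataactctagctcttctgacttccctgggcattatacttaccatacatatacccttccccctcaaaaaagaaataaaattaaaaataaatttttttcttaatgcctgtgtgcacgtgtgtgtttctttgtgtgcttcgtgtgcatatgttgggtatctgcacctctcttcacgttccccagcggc
Tnfrsf18 (chr4:156026072-156026321, + strand): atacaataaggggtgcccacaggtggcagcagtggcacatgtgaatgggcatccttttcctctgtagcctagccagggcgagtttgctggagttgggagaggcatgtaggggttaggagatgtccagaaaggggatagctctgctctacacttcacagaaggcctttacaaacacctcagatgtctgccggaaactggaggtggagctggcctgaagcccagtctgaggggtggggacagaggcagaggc
Tnfrsf9 (chr4:150927749-150927998, + strand): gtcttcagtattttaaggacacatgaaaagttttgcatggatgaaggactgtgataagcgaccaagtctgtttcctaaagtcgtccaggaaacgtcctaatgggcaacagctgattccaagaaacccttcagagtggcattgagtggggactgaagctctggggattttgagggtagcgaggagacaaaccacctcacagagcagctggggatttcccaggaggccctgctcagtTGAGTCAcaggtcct
The match of *Tnfrsf9*, TGAGTCA, lies 15 to 9 bases before the start, and 0 AP-1 matches stand in the windows of *Tnfrsf4* and *Tnfrsf18*. A looser κB-like pattern (GGG and CC with any 5 bases between them, both strands), which 45.8% of all promoters held, also matched the window of *Tnfrsf9*, at 43 to 34 bases and, on both strands, at 42 to 33 bases before the start. These matches describe the letters of the windows only.

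*Cd40lg*, the ligand that helper T cells show to CD40, was scarce and came mostly from 1 cluster of T cells. It stood at 34.5, 50.5, 53.5 and 34.4 CPM in the T class (191, 128, 356 and 114 UMIs), higher with either agonist alone, by a log2 ratio of 0.55 (0.21 to 0.88) with ADU-S100 and 0.63 (0.38 to 0.89) with anti-LTβR, and by -0.0039 (-0.35 to 0.34) with the combination. The *Il17a* cluster carried it at 161, 209, 223 and 141 CPM (154, 107, 310 and 84 UMIs), whereas in the *Klrh1* cluster it gave 1, 7, 4 and 2 UMIs. At a finer clustering, 1178 cells led by *Cd40lg*, *Tnfsf11*, *Ccr4* and *Cd4* stood apart from 208 cells with *Scart1*, *Il17a* and *Il23r* among their leading genes, so that the *Il17a* cluster joined more than 1 kind of cell. By UMIs, CD4 cells without *Foxp3* had 185, 289.95, 226 and 154 CPM. It was seen in 7.93, 9.58, 9.10 and 4.33% of T cells (6.53, 6.78, 7.28 and 4.02% thinned) and in 0% of neutrophils in every library. In depth-matched cells the log2 ratio of *Cd40lg* was 0.24 with anti-LTβR, below the 1.5-fold limit, and -0.86 with the combination.

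In DCs as sampled, the CD28 ligands and CD40 stood highest with ADU-S100. *Cd80* was at 463, 679, 585 and 553 CPM, with log2 ratios of 0.55 (0.47 to 0.63), 0.34 (0.26 to 0.41) and 0.26 (0.17 to 0.34) in the 3 treated libraries. *Cd86* was at 1107, 1530.1, 1122 and 1167 CPM, a log2 ratio of 0.47 (0.42 to 0.52) with ADU-S100, and 0.020 (-0.031 to 0.070) and 0.076 (0.020 to 0.13) with anti-LTβR and the combination. *Cd40*, which receives the T cell signal, was at 114, 165, 127 and 138 CPM, a log2 ratio of 0.53 (0.37 to 0.69) with ADU-S100. Neutrophil markers, too, were highest in DCs with ADU-S100 (666 CPM), and neutrophils carry *Cd80*, but the part of their RNA in these levels was not tested. At untreated cluster shares, the log2 ratios with ADU-S100 were 0.39 for *Cd80*, 0.36 for *Cd86* and 0.37 for *Cd40*, which then lay close to its combination value (0.33). None of these differences reached 1.5-fold, and 0 of 8 measured genes passed it with ADU-S100, against 7.04% of all genes. With anti-LTβR 0 passed upwards and 3 downwards (*Icosl*, *Tnfrsf4* and *Icos*), against 6.5%. At untreated cluster shares these 3 still passed downwards, and *Tnfrsf9* passed upwards, at 0.78 against 0.57 as sampled. With the combination 1 of 8, *Tnfrsf4*, passed downwards and 0 upwards, against 10.1%. The median log2 ratio of the measured members was 0.17, -0.093 and 0.16, beside -0.053, -0.017 and -0.046 over all genes.

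*Icosl*, the ligand of ICOS, went the other way from *Cd80* and *Cd86* in DCs. It was at 64.2, 57.8, 35.5 and 45.5 CPM (341, 231, 216 and 182 UMIs), with log2 ratios of -0.86 (-1.11 to -0.61) in the anti-LTβR library and -0.50 (-0.76 to -0.23) in the combination library. Untreated and ADU-S100 were the high libraries. *Tnfrsf4* was counted in DCs as well, at 23.9, 18.8, 12.5 and 11.8 CPM, with log2 ratios of -0.94 (-1.37 to -0.52) and -1.02 (-1.54 to -0.53) for the same libraries. The *Icos* value rests on few UMIs (55, 34, 35 and 53, of which up to 18, 10, 3 and 8 came from 1 cell), and its direction with anti-LTβR was reversed at a finer clustering, with wider limits on cells and with each cell weighted equally.

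The DC class held subsets with distinct sets of these genes. Mature DCs, led by *Cacnb3* and *Fscn1*, are DCs that have taken on the programme for moving to lymph nodes (187, 184, 194 and 200 cells). They were the only DC subset with more than 10 CPM of *Tnfrsf4* in any library, at 98.1, 65.7, 55.9 and 64.8 CPM, and in every library they held more *Cd40* (271, 340.3, 299.7 and 380.1 CPM) and *Icosl* (115, 81.9, 55.1 and 92.2 CPM) than the other DC subsets. *Cd80* in mature DCs was at 1004, 1199, 1031 and 943 CPM, highest with ADU-S100 and lowest with the combination. *Cd86* was at 1300.4, 2117, 1543 and 1528 CPM, which with ADU-S100 was past 1.5-fold (0.70 (0.61 to 0.80)). *Icosl* was lowest with anti-LTβR (-1.06 (-1.50 to -0.62)), where *Tnfrsf9* was highest (187, 211, 329.7 and 199 CPM, 0.82 (0.58 to 1.06)). With the combination, both stood near untreated, at -0.32 (-0.77 to 0.12) and 0.088 (-0.23 to 0.40). Mature DCs made up 27.1, 35.8, 20.8 and 19.5% of the DC class.

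Type 2 conventional DCs (cDC2, 305, 218, 597 and 694 cells) carried *Cd86* at 1429, 1699, 1158 and 1208 CPM and *Cd80* at 456, 653, 569 and 553 CPM. This subset joined a cluster with *Cd209a* among its leading genes and a cluster led by *Retnla*, and the latter had 35, 17, 193 and 237 cells, few in the first pair of libraries. In the *Cd209a* cluster *Cd80* was at 505, 699, 714 and 686 CPM, with log2 ratios of 0.47 (0.35 to 0.59), 0.50 (0.39 to 0.61) and 0.44 (0.32 to 0.56), so that all 3 treated libraries were higher to a similar degree. *Cd86* there was at 1564, 1812, 1459.97 and 1543 CPM, and *Icosl* at 66.9, 62.5, 36.1 and 51.4 CPM. In the *Retnla* cluster *Cd80* was at 74.8, 122, 222 and 275 CPM (21, 19, 255 and 236 UMIs). Type 1 conventional DCs (cDC1, 125, 50, 82 and 104 cells), which specialize in cross-presentation, had less of each, with *Cd86* at 592, 638, 605 and 672 CPM and *Cd80* at 95.7, 150.2, 146 and 148 CPM. *Tnfrsf9* in cDC1 rested on single cells, with 28 of 57 UMIs in 1 cell with anti-LTβR and 20 of 24 in 1 cell with the combination. Plasmacytoid DCs (73, 62, 60 and 29 cells) gave 21, 72, 11 and 20 *Cd86* UMIs, 51 of the 72 with ADU-S100 in 1 cell.

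**Figure D4:**
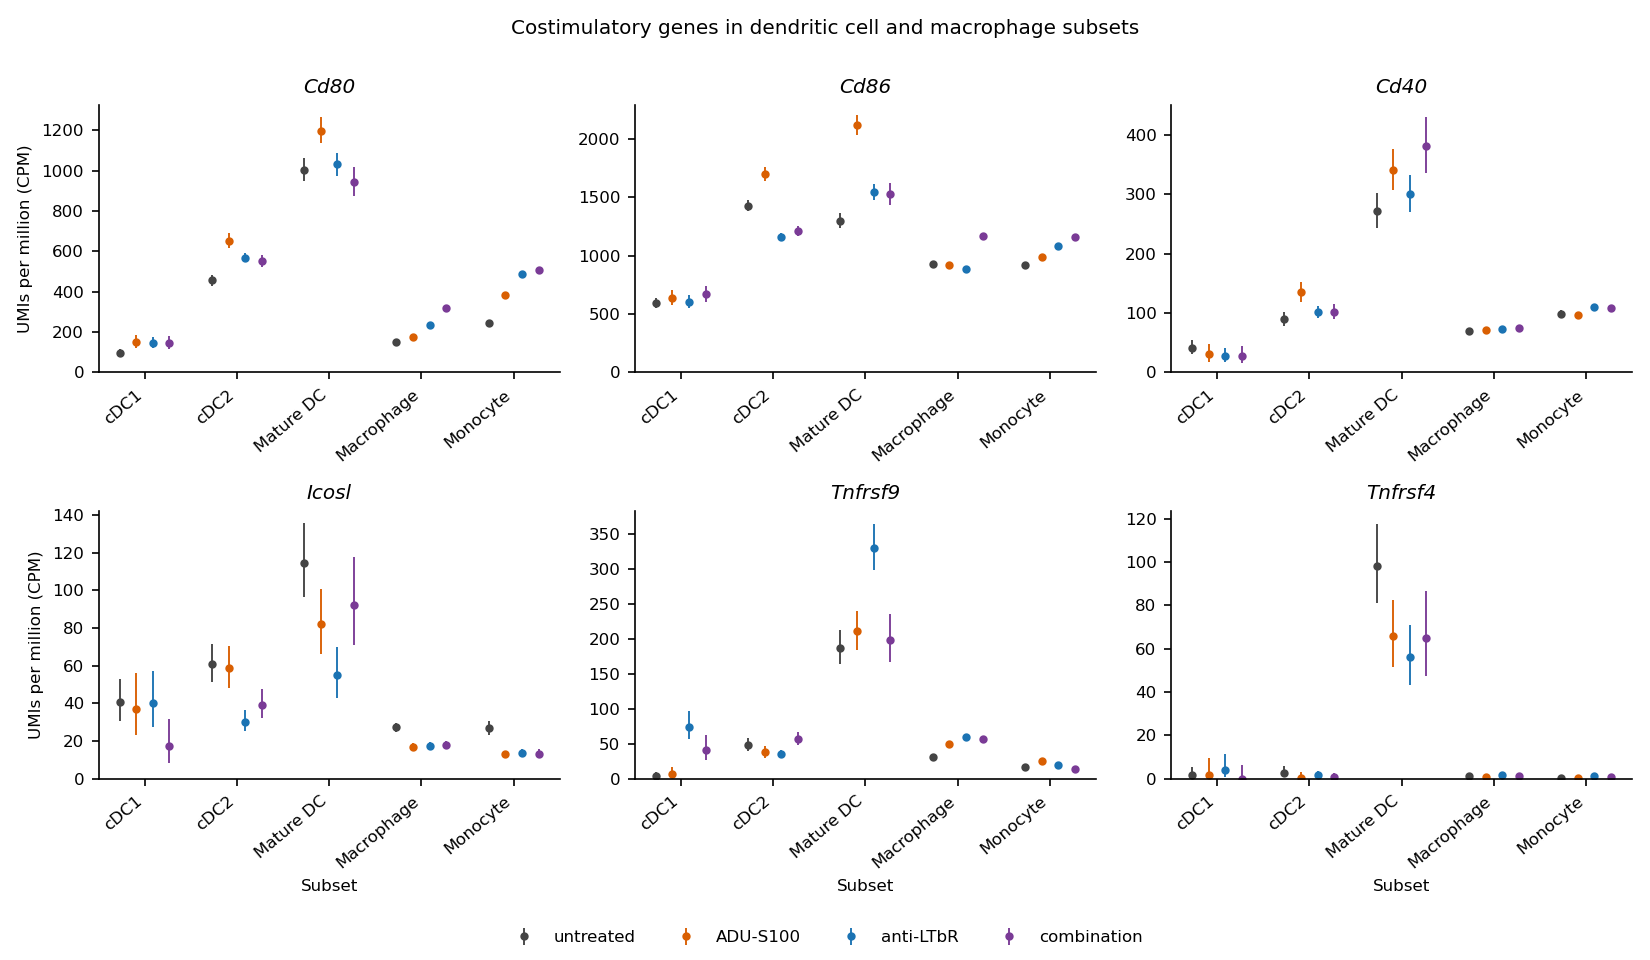
Levels (CPM, linear axes from 0) of 6 genes in DC subsets, macrophages and monocytes. Points are libraries and bars exact Poisson 95% intervals for counting error. *Cd40*, *Icosl* and *Tnfrsf4* are highest in mature DCs, and *Cd80* is higher in macrophages and in monocytes of the treated libraries than in those of untreated tumours.

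In macrophages and monocytes, *Cd80* stood higher in every treated library. It was at 180.2, 282, 359.9 and 398 CPM (4676, 10929, 12887 and 10354 UMIs), with log2 ratios of 0.65 (0.60 to 0.70), 1.00 (0.95 to 1.05) and 1.14 (1.09 to 1.19) in the treated libraries. The untreated library was the lowest and the combination the highest. Markers of other cells that carry *Cd80* also differed in this class, those of neutrophils summing to 125, 424, 189.8 and 210.3 CPM and those of cDC2 to 646, 546, 884 and 919 CPM, and their part in the *Cd80* level was not tested. With each cluster held at its untreated share of UMIs, the log2 ratios were 0.32, 0.83 and 1.08, so that with ADU-S100 it no longer reached 1.5-fold. *Cd86*, the other ligand of CD28, was higher in level and nearly even, at 926, 955, 982 and 1163 CPM, with log2 ratios of 0.044 (0.021 to 0.068), 0.084 (0.060 to 0.11) and 0.33 (0.30 to 0.35). *Cd40* was at 78.5, 84.2, 91.2 and 88.6 CPM, with log2 ratios of 0.10 (0.022 to 0.18), 0.22 (0.14 to 0.30) and 0.18 (0.089 to 0.26).

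The higher *Cd80* was seen in most clusters of the class. In a monocyte cluster led by the interferon-induced genes *Cxcl11* and *Ifit2* beside *AA467197*, *Cd80* was at 295, 417, 609.96 and 633 CPM. In a macrophage cluster led by *Ch25h* and the complement genes *C1qa* and *C1qc* it was at 155, 171, 277 and 347 CPM, with log2 ratios of 0.14 (0.049 to 0.24), 0.84 (0.76 to 0.93) and 1.17 (1.08 to 1.25). In the cluster led by *Adgre4* it was at 193, 274, 331 and 402 CPM, and in the cluster led by *Adm*, *Mmp12* and *Gpnmb* at 149.96, 198, 271 and 292 CPM. In these 4 clusters the untreated library was the lowest and the combination the highest. The *Adm* cluster was named from 3 of 12 macrophage markers only. Outside these, dividing cells led by *Ube2c* had *Cd80* at 164, 147, 215 and 300.01 CPM, lowest with ADU-S100. A further exception was the cluster led by *Cbr2* and *Cd163*, genes of tissue-resident macrophages, where *Cd80* was at 95.7, 146, 93.1 and 148 CPM and the log2 ratio with anti-LTβR was -0.039 (-0.32 to 0.25).

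Because *Cd80* differed more than *Cd86* between the libraries in macrophages and monocytes, its promoter is shown too, again with the AP-1 match in capitals and as RefSeq gives it on GRCm38.p6.
Cd80 (chr16:38458683-38458932, + strand): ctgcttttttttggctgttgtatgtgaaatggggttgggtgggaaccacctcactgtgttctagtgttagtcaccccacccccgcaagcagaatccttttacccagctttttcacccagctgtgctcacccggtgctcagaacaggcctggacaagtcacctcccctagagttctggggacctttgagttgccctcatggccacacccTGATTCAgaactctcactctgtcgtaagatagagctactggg
The match, TGATTCA, lies 42 to 36 bases before the start. The window also matched the looser κB-like pattern, on the same strand at 210 to 201 bases and on the opposite strand at 52 to 43 bases before the start. The promoter of *Icosl*, which was lower in the same cells, matched that pattern as well, on the same strand at 71 to 62 bases and on the opposite strand at 111 to 102 bases before the start, and held 0 AP-1 matches.

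*Icosl* was lower in macrophages and monocytes of every treated library. It was at 27.1, 14.9, 15.7 and 15.9 CPM (703, 577, 563 and 414 UMIs), with log2 ratios of -0.86 (-1.02 to -0.70), -0.78 (-0.95 to -0.62) and -0.77 (-0.94 to -0.59), and the treated libraries lay close to each other. The level was 27.2, 16.98, 17.5 and 17.8 CPM in macrophages and 26.9, 12.9, 13.9 and 13.2 CPM in monocytes. In the *Adm* cluster, where it was low in every library (10.97, 9.36, 11.7 and 13.9 CPM), the intervals of the ratios included 0. *Icosl* in macrophages and monocytes was seen in 17.7, 10.7, 8.01 and 5.63% of cells, and in 5.12, 3.26, 3.30 and 2.86% once thinned, against 1.84, 2.12, 2.04 and 0.155% of thinned T cells.

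*Tnfrsf9*, better known on T and natural killer (NK) cells, was counted in macrophages and monocytes at 26.5, 37.2, 39.8 and 38.9 CPM (689, 1439, 1426 and 1012 UMIs), with log2 ratios of 0.49 (0.35 to 0.62), 0.59 (0.45 to 0.72) and 0.55 (0.41 to 0.69). It came mostly from macrophages (31.01, 49.9, 59.6 and 56.3 CPM) rather than monocytes (16.9, 24.8, 19.4 and 14.3 CPM). Of the clusters it was highest in the one led by *Adm*, *Mmp12* and *Gpnmb*, at 110.2, 117, 188 and 159.9 CPM, with log2 ratios of 0.081 (-0.15 to 0.31), 0.77 (0.54 to 1.00) and 0.54 (0.29 to 0.79). With ADU-S100, where that cluster made up 16.7% of the class against 7.61% in untreated, the log2 ratio of the class was 0.094 with clusters held at their untreated shares.

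The receptors of T cells gave few UMIs in macrophages and monocytes, and the level that free RNA alone would give was not measured. *Cd28* was at 1.54, 0.904, 1.59 and 1.62 CPM and *Icos* at 1.35, 0.362, 1.12 and 1.04 CPM, while in neutrophils they were at 1.12, 3.78, 2.29 and 2.71 and 10.1, 1.18, 5.15 and 3.39 CPM. *Tnfrsf18* was at 2.81, 2.79, 4.44 and 6.12 CPM against 19.1, 12.5, 10.9 and 11.5 CPM in neutrophils. At such levels, calls of these genes in macrophages and monocytes are given only as counts. With ADU-S100, 1 of the 9 measured genes passed 1.5-fold upwards (*Cd80*) and 4 downwards (*Icosl* and the scarce *Cd28*, *Icos* and *Tnfrsf4*), where 15.5% of all genes passed. Each of these scarce genes had fewer than the 200 UMIs asked of the genes in that share. T markers in this class summed to 10.1, 2.63, 8.69 and 8.69 CPM, lowest with ADU-S100 as were *Cd28* and *Icos*, and their part in these calls was not tested. With anti-LTβR, 4 passed upwards (*Cd80*, *Tnfrsf9* and the scarce *Tnfrsf4* and *Tnfrsf18*) and 1 downwards (*Icosl*), against 6.27%. With the combination, 2 passed upwards (*Cd80* and *Tnfrsf18*) and 1 downwards (*Icosl*), against 6.18%. The median log2 ratio of the measured members was -0.012, 0.22 and 0.33, beside -0.20, -0.037 and -0.086 over all genes. The shift of all genes with ADU-S100 was over 0.1, and relative to it the log2 ratio of *Cd80* was 0.85.

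The B class differed between libraries in its make-up. It held 6, 8, 139 and 213 B cells and 105, 64, 396 and 824 plasma cells, so that levels in B cells of the untreated and ADU-S100 libraries rest on a handful of cells. B cells had *Cd86* at 1106, 308, 827 and 714 CPM (32, 6, 459 and 324 UMIs) and *Cd80* at 415, 0, 238 and 211 CPM (12, 0, 132 and 96 UMIs), and *Cd40*, a defining receptor of B cells, gave 3, 2, 36 and 23 UMIs. In plasma cells the ligands were lower, with *Cd86* at 68.9, 41.998, 59.8 and 101 CPM and *Cd80* at 22.3, 36.9, 32.9 and 50.4 CPM. *Cd28* took the opposite course: it was counted in plasma cells, at 29.7, 25.6, 46.3 and 33.4 CPM (28, 25, 179 and 144 UMIs), and gave 2, 0, 0 and 1 UMIs in B cells. CD28 is known on plasma cells, and the plasma cell level was above the 1.54, 0.904, 1.59 and 1.62 CPM of macrophages and monocytes in every library. The B class held 1.60, 2.08, 7.69 and 13.3% of the *Cd28* UMIs of all leukocytes.

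Over the B class as a whole, 1 of 5 measured genes passed 1.5-fold upwards and 2 downwards with ADU-S100, where 28.7% of all genes tested passed. Each of these 5 had fewer than the 200 UMIs asked of the genes tested. The upward call, *Tnfrsf9*, rests on 5 UMIs in the untreated and 17 in the ADU-S100 library. With anti-LTβR 2 of 9 passed upwards and 3 downwards (13.5% of all genes), and with the combination 3 of 8 upwards and 2 downwards (12.6%). The genes upwards in the latter pair included *Cd80*, at 33.96, 36.2, 58.6 and 65.7 CPM, and *Cd86*, at 99.8, 47.2, 156 and 159 CPM. With each cluster held at its untreated share of UMIs, the log2 ratio of *Cd86* in the latter pair turned from 0.65 to -0.38 with anti-LTβR and from 0.67 to 0.25 with the combination, and that of *Cd80* from 0.79 to 0.35 and from 0.95 to 0.80. The median log2 ratio of the measured members was -0.30, 0.19 and 0.24, beside -0.14, 0.045 and 0.064 over all genes. The downward call of *Icos* rests on 25, 0, 16 and 9 UMIs in plasma cells. T markers in the B class summed to 65.9, 2.01, 19.7 and 24.1 CPM, highest in the untreated library, where *Icos*, *Tnfrsf4* and *Tnfrsf18* were highest too, and their part in the downward calls was not tested. Macrophage markers in the B class summed to 1354, 948, 567 and 1090.2 CPM, and their part in the *Cd80* and *Cd86* levels was not tested.

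Outside these 4 classes, NK cells carried *Cd28* at 151, 134, 119.8 and 103 CPM, *Tnfrsf9* at 117, 145, 119 and 99.99 CPM, *Tnfrsf18* at 117, 92.95, 95.6 and 93.3 CPM and *Icos* at 85.9, 111, 93.7 and 76.9 CPM, all below T cells of the same library. *Tnfrsf4* gave 4, 0, 18 and 3 UMIs in NK cells. Neutrophils carried *Cd80* at 822, 639, 687 and 788 CPM with little *Cd86* (65.2, 92.98, 129.9 and 91.6 CPM). Neutrophils held 7.55, 29.6, 5.68 and 6.66% of the *Cd80* UMIs of the libraries, the largest share with ADU-S100, where they were most numerous. An unnamed cluster led by *Plcb1*, *St7* and *Gab1* had more *Cd86* than any of the 4 classes, at 2829, 3337, 3759 and 3505 CPM, and *Cd80* at 455, 797, 976 and 878 CPM.

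Set beside the single agonists, the combination library was closer to anti-LTβR than to ADU-S100 for most receptors of T cells. In T cells its log2 ratio to anti-LTβR was 0.064 (-0.068 to 0.19) for *Tnfrsf9*, -0.12 (-0.27 to 0.030) for *Tnfrsf18* and -0.28 (-0.44 to -0.12) for *Tnfrsf4*, and its log2 ratio to ADU-S100 was -0.40 (-0.55 to -0.25), -0.64 (-0.81 to -0.48) and -0.83 (-1.01 to -0.65). *Cd40lg* was lower than with either agonist alone, by -0.55 (-0.93 to -0.18) against ADU-S100 and -0.64 (-0.95 to -0.33) against anti-LTβR. For *Cd80* in macrophages and monocytes the values were 0.50 (0.46 to 0.54) and 0.15 (0.11 to 0.18), both higher with the combination. In DCs *Cd80* and *Cd86* were lower with the combination than with ADU-S100, by -0.30 (-0.38 to -0.22) and -0.39 (-0.45 to -0.34), and differed from anti-LTβR by -0.082 (-0.16 to -0.0053) and 0.056 (0.0024 to 0.11).

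The other ligands and receptors of costimulation, a list of 17 genes each read in the class with most of its UMIs, gave 16 with at least 50 UMIs. Of these, 5 passed 1.5-fold upwards and 2 downwards with ADU-S100, 2 and 4 with anti-LTβR, and 1 and 5 with the combination, with median log2 ratios of -0.087, -0.25 and -0.28. Over all genes tested in T cells, DCs and macrophages and monocytes, where these genes were read, 6.6, 7.04 and 15.5% passed in either direction with ADU-S100, 6.57, 6.5 and 6.27% with anti-LTβR and 5.69, 10.1 and 6.18% with the combination. Among the ligands, *Tnfsf9*, which binds 4-1BB, stood out in macrophages and monocytes with ADU-S100, at 59.4, 147, 60.3 and 64.01 CPM (1.31 (1.23 to 1.39)). *Tnfsf4*, which binds OX40, was at 24.5, 48.6, 11.99 and 10.8 CPM in DCs, a log2 ratio of 0.99 (0.66 to 1.32) with ADU-S100 and -1.03 (-1.46 to -0.61) and -1.19 (-1.72 to -0.68) in the other libraries. *Cd70*, the ligand of CD27, was at 8.66, 7.01, 2.30 and 1.0004 CPM in DCs, with -1.91 (-2.89 to -1.03) in the anti-LTβR and -3.11 (-5.05 to -1.66) in the combination library. These *Cd70* values rest on only 46, 28, 14 and 4 UMIs in 21, 14, 13 and 2 cells. In T cells, *Tnfsf8*, the CD30 ligand, was higher in all 3 treated libraries (139, 209.8, 227 and 221 CPM). Of its UMIs, 70 of 532 with ADU-S100 and 56 of 732 with the combination came from 1 cell each. Without thinning, 16.9, 21.8, 25.4 and 16.4% of T cells held a *Tnfsf8* UMI. *Ctla4*, the inhibitory receptor that competes with CD28 for CD80 and CD86, was at 1315, 855, 699.7 and 715 CPM and past 1.5-fold downwards in all 3, by -0.62 (-0.69 to -0.55), -0.91 (-0.96 to -0.86) and -0.88 (-0.95 to -0.81). *Tnfrsf8* (CD30) was at 22.05, 19.3, 12.03 and 14.5 CPM, *Cd226* at 305, 202, 229 and 231 CPM and *Slamf1* at 84.2, 94.3, 69.2 and 55.6 CPM in T cells, each past the limit downwards in at least 1 library. In macrophages and monocytes *Tnfsf14* was at 10.2, 15.7, 11.2 and 9.31 CPM and *Tnfsf15* at 2.74, 4.11, 4.30 and 3.89 CPM, both past the limit upwards with ADU-S100, as was *Tnfsf15* with anti-LTβR. *Tnfsf18*, the GITR ligand, gave under 50 UMIs. At untreated cluster shares, computed after the data had been seen, the log2 ratios of *Ctla4* were -0.23, -0.27 and -0.18, and none of the list's genes read in T cells passed 1.5-fold. Of the 16 genes, 2 then passed upwards and 1 downwards with ADU-S100, 0 and 2 with anti-LTβR and 0 and 2 with the combination, those with the latter pair being *Tnfsf4* and the scarce *Cd70*. The shares over all genes above are as sampled, and none is given at untreated cluster shares to set beside these counts.

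Of the 14 adapters and kinases that carry these signals inside the cell, 1 passed 1.5-fold upwards and 1 downwards with ADU-S100, 1 and 0 with anti-LTβR and 2 and 0 with the combination, with median log2 ratios of -0.093, 0.17 and 0.16. They were read in T cells or in macrophages and monocytes, where 6.6 and 15.5% of all genes passed with ADU-S100, 6.57 and 6.27% with anti-LTβR and 5.69 and 6.18% with the combination. The adapter *Traf1*, which binds 4-1BB among other TNF receptors, was higher in macrophages and monocytes of all 3 treated libraries, at 43.4, 152, 100.3 and 109 CPM (1.81 (1.72 to 1.90), 1.21 (1.11 to 1.31) and 1.33 (1.23 to 1.43)). Its log2 ratios with clusters held at their untreated shares were 1.27, 0.89 and 1.16. *Traf5* was at 34.02, 19.4, 31.5 and 33.5 CPM, lowest with ADU-S100, a difference that no longer reached 1.5-fold with shares held, and *Pik3r1*, a regulatory subunit of phosphoinositide 3-kinase, at 198, 183, 210.5 and 302 CPM, highest with the combination.

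Across 52 pairs of subset and library with at least 50 cells, the genes with the pattern most like each member were taken from 10665 genes by Pearson correlation of log2(CPM + 1). These points share libraries and depth, and the values are descriptions. For *Cd28* they were Lef1 (0.95), Themis (0.94) and Zap70 (0.94), for *Icos* Cd3e (0.95), Tnfrsf18 (0.95) and Cd3d (0.95), and for *Tnfrsf18* Icos (0.95), Pdcd1 (0.91) and Ubash3a (0.91), T cell genes for the most part. *Tnfrsf4* was most like Itgb8 (0.89), Ikzf4 (0.89) and Slamf1 (0.89), and *Tnfrsf9* most like Scyl2 (0.82), Mov10 (0.81) and Tnfrsf18 (0.81). For *Cd86* they were Ifi30 (0.93), H2-Eb1 (0.93) and Cd40 (0.93), for *Cd40* Cd86 (0.93), Cxcl16 (0.93) and Nectin2 (0.92), for *Cd80* Dstn (0.86), Clec7a (0.85) and Marcksl1 (0.84) and for *Icosl* Pdcd1lg2 (0.82), Arhgef40 (0.79) and Sipa1l3 (0.79). *Cd40lg* was most like Ntrk3 (0.89), Ccr8 (0.89) and Izumo1r (0.88). Within the set, *Icos* and *Tnfrsf18* were each among the other's closest genes, as were *Cd86* and *Cd40*.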

How the data were processed

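The files hold UMI counts per gene and cell from 4 libraries (10x 5′ chemistry), deposited as raw counts without normalization. The authors aligned and counted the reads with Cell Ranger 7.1.0 on mm10 according to the study's methods and the labels, whereas the file headers name version 8.0.1. The methods describe 2 independent experiments, and each group has 1 library here. The labels and the methods name different versions of the 5′ kit.

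Cells with 300 to 5000 genes and at most 6% mitochondrial UMIs were kept, as the study's methods state. Doublets were scored per library with Scrublet (scanpy 1.11.5), whose threshold marked 0, 0, 1 and 0 cells, so the highest-scoring cells up to 0.4% per 1000 deposited cells were removed (305, 949, 857 and 1066 cells). Kept cells were clustered together (2000 variable genes, 30 components, 20 neighbours, Leiden at resolution 1, leidenalg 0.10.2). A cluster was named after the class of whose markers it held most as a share, counting a marker when it was detected in 10% of the cluster's cells or more and was 2-fold or more above other cells, and 3 such markers were needed. A cluster stayed unnamed where markers of another class led its top 10 genes, or where its cells' median depth was under 33.3% of their library's with no marker of the class among them. The further demand that 50% of the markers or 1 of the top 10 genes belong to the class was set after seeing the data, and differences from the study may come from these rebuilt names.

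UMIs were summed per class or subset and library and divided by the total of the same cells (CPM). Levels carry exact Poisson, shares exact Clopper-Pearson and ratios exact conditional binomial 95% intervals, all for counting error only. For a count of 0, the limit given is 3 counts. With 1 library per group there is no replicate check and no test, and p-values were not computed. Genes with at least 200 UMIs in both libraries together entered the counts over all genes, and members at 0 in a library entered medians at the limit of 3 counts. The ratio step was tested on simulated counts. The named genes were the 10 members, the genes of the lists past 1.5-fold with at least 50 UMIs, the 1 list gene with fewer (named after its values were seen), and the 3 genes most like each member. The members and lists were chosen with earlier results of these data known.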

Additional observations from a re-analysis of the deposited data

Results flagged for a closer look

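*Cd80* was counted in neutrophils, a class outside the comparisons of the 4 main classes, above every one of those classes in 3 libraries. Its level there was 821.9 CPM in the untreated, 686.9 CPM in the anti-LTβR and 788.4 CPM in the combination library, against 462.9, 585.2 and 552.7 CPM in DCs of the same libraries. Both neutrophil clusters held it, at 497, 533, 595 and 645 CPM in the cluster led by *Ccdc126* and *Ciart* and at 1015, 873, 794 and 914 CPM in the cluster led by *Mmp9* and *Lrg1*. *Cd86* stood at 65.2, 92.98, 129.9 and 91.6 CPM in neutrophils, while macrophages and monocytes, which had less *Cd80*, held 926, 955, 982 and 1163 CPM.

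*Tnfrsf9* with anti-LTβR differed from untreated in opposite directions in 2 classes as sampled. Its log2 ratio was 0.59 in macrophages and monocytes and -0.66 in T cells. With each cluster held at its untreated share of UMIs, the values were 0.58, just under the 1.5-fold limit, and -0.015, near 0. The difference between the classes was not tested, since each group had 1 library.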

How the results depend on the processing

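No paired analysis was possible because each group had 1 library, and for the same reason no replicate could be left out. Depth limits *Cd40lg*, *Icosl* and every level in B cells. Under the 10 alternatives that bear on that class, *Cd80* in macrophages and monocytes kept log2 ratios of 0.83 to 1.05 in the anti-LTβR and 1.08 to 1.23 in the combination library, but 0.32 to 0.85 with ADU-S100, and *Icosl* there kept -1.004 to -0.64, -0.82 to -0.70 and -0.93 to -0.68.

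As reported, in the ADU-S100, anti-LTβR and combination libraries 0, 4 and 3 members passed 1.5-fold in T cells, 3, 5 and 5 in the B class, 0, 3 and 1 in DCs, and 5, 5 and 3 in macrophages and monocytes. For the alternatives below, no share over all genes is given. Their counts therefore do not show whether members moved more than other genes. With each cell named without clusters, the counts with ADU-S100 became 1 in T cells, 5 in the B class and 2 in DCs, those with anti-LTβR 3 in the B class, 5 in DCs and 3 in macrophages and monocytes, and those with the combination 5 in T cells, 3 in the B class and 5 in macrophages and monocytes. Without doublet removal, they became 1 in T cells, 1 in DCs and 2 in macrophages and monocytes with ADU-S100, and 8 in T cells with the combination. With 200 to 8000 genes and at most 10% mitochondrial UMIs, they became 2 in T cells, 5 in the B class and 1 in DCs with ADU-S100, 3 in macrophages and monocytes with anti-LTβR, and 2 in the B class with the combination. Thinned to 2000 UMIs per cell, they became 1 in T cells, 1 in the B class, 2 in DCs and 3 in macrophages and monocytes with ADU-S100, 2 in the B class with anti-LTβR, and 6 in T cells and 1 in the B class with the combination. At Leiden resolution 2, they became 2 in T cells with ADU-S100 and 2 in DCs with the combination. With the median log2 ratio of all tested genes set to 0, they became 1 in T cells and 2 in DCs with ADU-S100. With the mean of the CPM of each cell, they became 8 in the B class and 3 in macrophages and monocytes with anti-LTβR, and 8 in the B class and 2 in DCs with the combination. With no minimum of UMIs, they became 1 in T cells, 7 in the B class and 1 in DCs with ADU-S100, and 2 in DCs with the combination. For these, the cause was not tested.

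The remaining alternatives were chosen after seeing the data. With each cluster held at its untreated share of UMIs, the counts became 0 in T cells with anti-LTβR and with the combination, and 1 in DCs and 3 in macrophages and monocytes with ADU-S100. Without the cell that held the most UMIs of a member, they became 5 in T cells and 2 in DCs with the combination, and 1 in the B class with ADU-S100. Without the *Galnt18* cluster, the count in T cells with the combination became 6. Leaving immunoglobulin genes out of the total, or the *Retnla* cluster out of the DCs, left every count within 1.5 times.

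Of the log2 ratios past 1.5-fold as reported, 10 were counted as turning direction under at least 1 alternative, 13 times in all. Among these, 1 (*Tnfrsf9* in the B class, thinned) was counted only because 0 UMIs were taken at the limit of 3 counts. Ratios under the limit, such as that of *Icos* in T cells, were not counted in this. *Icos* in DCs with anti-LTβR (-0.85) became 0.30 with the wider limits on cells, 0.23 at resolution 2 and 0.11 with the mean over cells. *Tnfrsf4* in macrophages and monocytes with ADU-S100 (-0.64) became 0.23 thinned and 0.23 with the mean over cells. *Cd80* in T cells with anti-LTβR (-0.75) became 0.32 without doublet removal. *Tnfrsf9* in T cells with the combination (-0.60) became 0.033 with clusters held at their untreated share. In the B class, with each cell named without clusters, *Cd86* with ADU-S100 (-1.08) became 0.65, *Tnfrsf4* with anti-LTβR (-1.19) became 0.18, and *Tnfrsf18* became 0.30 with anti-LTβR (-0.77) and 0.21 with the combination (-0.83). *Tnfrsf9* in the B class with ADU-S100 (1.73) was put at -0.043 thinned. That value sets 2 UMIs with ADU-S100 against 0 in untreated taken at the limit of 3 counts, so the counts themselves did not turn. *Cd86* in the B class with anti-LTβR (0.65) became -0.38 with clusters held at their untreated share.

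Levels of members in subsets lay outside their counting interval in 72 cases with the mean over cells, 84 without doublet removal and 95 thinned, and inside it in 198, 186 and 175. With no *Cd4* UMI needed for *Foxp3*+ cells, 3 lay outside and 19 inside.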
